A study of Rattus norvegicus with 7 samples.

Results

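Cultured fetal rat spinal cord cells were compared after 72 hours and after 48 hours of cyclic tensile strain, which covers the last of the 24-hour steps of a time course of 7 arrays. The comparison was made between 1 array at 72 h and 1 array at 48 h, over the 17714 of 31042 non-control probe sets whose mean signal on these arrays was at least 100. A further 13328 probe sets lay under that minimum and are not described. The cells came from E15 Sprague-Dawley rat spinal cords freed of dorsal root ganglia and meninges, and had been kept for 3 days on flexible membranes coated with type IV collagen before a strain of 10% at 0.5 Hz was applied. Every array, including the 0 h array taken before loading, held RNA combined from 5 animals, so that no spread between animals or cultures is known. The cells under strain carried no genetic change and received no drug. The strain is not homogeneous across a well, so each pool mixes cells that were stretched to different degrees. Unloaded cultures of the same age at 48 h or 72 h were not analysed here, and hours under strain, hours in culture and the pool of animals cannot be told apart.

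A cultured embryonic spinal cord holds neurons and their precursors, astrocyte precursors, microglia, fibroblasts and remnants of adjoining tissue, and each of these responds to stretch in its own way. Stretched cells signal through integrins, ion channels and MAP kinases, which switch on early transcription factors such as the AP-1 family. Chemokines, growth factors, protease inhibitors and enzymes that remodel the matrix then follow over hours to days. Dividing cells meanwhile leave the cell cycle as a culture matures. A step late in such a course can therefore hold genes that keep moving, genes that have settled at a new level, and genes that return.

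The study scaled every array to the same trimmed mean, so the values of 500.144 at 72 h and 500.149 at 48 h were fixed in advance. They say nothing of how alike the arrays were. Of the probe sets, 42.6% at 72 h and 43.4% at 48 h had a signal below 100. The 3' to 5' ratio of the control probe sets was 2.62 at 72 h and 2.54 at 48 h for Actb, and 1.16 at 72 h and 1.17 at 48 h for Gapdh. On the 0 h array, the baseline of the earlier changes described below, it was 1.82 for Actb and 1.09 for Gapdh. The 3' control probe set of Actb read 21374 at 72 h and 21934 at 48 h, and that of Gapdh 18184 at 72 h and 17571 at 48 h. The signals of 18 spike-in probe sets, which report RNA added at hybridisation, gave ratios of 72 h to 48 h between 1.0 and 1.29 with a median of 1.13. The median ratio of 72 h to 48 h over all probe sets was 1.02, with a 5th percentile of 0.704 and a 95th percentile of 1.46.

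With 1 array at each time there is no test, so the genes are described by size alone. A probe set is said to be past the threshold where the ratio of 72 h to 48 h was at least 2 in either direction and the signals differed by at least 200, the rule of the study's methods. By that rule 52 probe sets were higher at 72 h than at 48 h, which is 0.294% of those described, and 64 were lower, which is 0.361%. The step of the 24 hours before, 48 h against 24 h, held 109 higher and 114 lower probe sets among 17616, or 0.619% and 0.647%. At the other end, 73.3% of all probe sets (12980) had a signal at 72 h that was at most 25% above or 20% below the one at 48 h, which is called a plateau here. Of the higher probe sets 42 carried a single gene symbol, 2 several and 8 none, and of the lower ones 51 carried a single symbol, 3 several and 10 none. After keeping for each gene its probe set of highest mean signal, 33 genes were higher and 45 were lower, out of 10112.

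**Figure D1:**
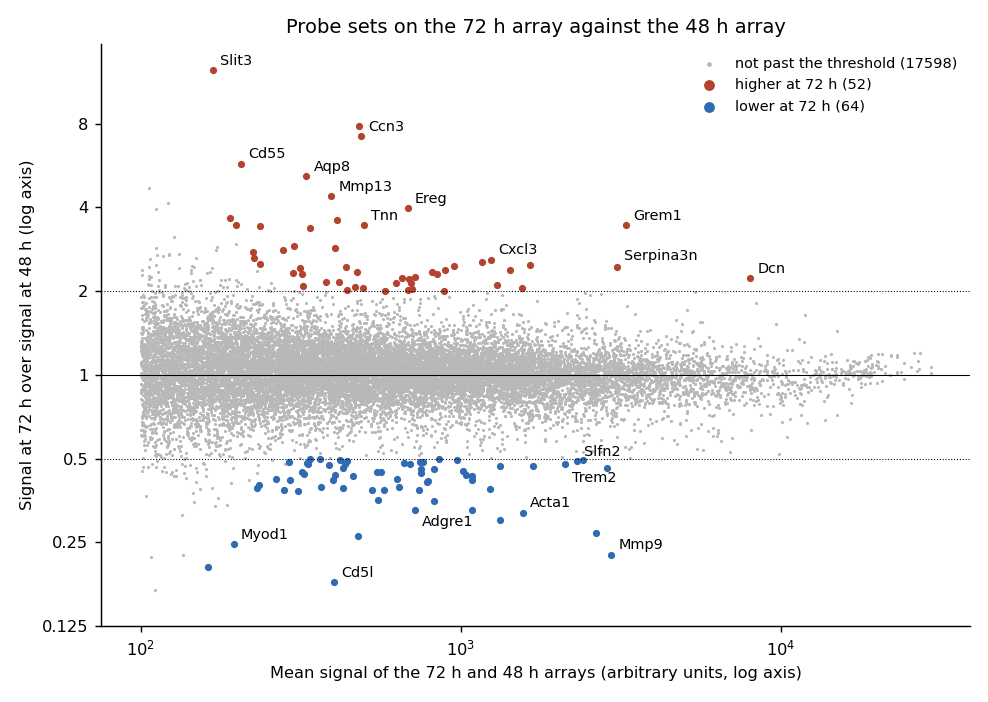
Signal at 72 h over signal at 48 h (log axis) against the mean signal of both arrays (arbitrary units, log axis) for the 17714 probe sets, each point being 1 probe set. The 52 higher and 64 lower probe sets are coloured, the dotted lines mark ratios of 2 and 0.5, and the grey cloud narrows as the signal grows.

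How far the probe sets of a gene agreed was measured on 4920 pairs of probe sets from 2736 genes. The median fold between probe sets of the same gene was 1.14 and the 95th percentile was 1.59. Where the first probe set of a pair was past the threshold, the second moved the same way in 44 of 45 pairs, and both passed in 18. Unlike the 4920 pairs, these were read in both orders. A pair with both probe sets past the threshold thus enters once for each order, and the distinct pairs are fewer. These probe sets share RNA, labelling and array, so this speaks of the probes and not of the cultures.

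Regulatory sequences are shown because members of the moving groups carried them just before their start. Mmp13 and Cxcl10 stand for the higher genes with an AP-1 element. Mki67 and Acta1 are single examples of lower genes of the cell cycle and of muscle, and need not represent them. The sequences are the 250 bases before the start of each gene in RefSeq on rat assembly GRCr8, written 5′ to 3′ on the strand of the gene. They lie at chr8:12782579-12782828 on the plus strand (Mmp13), chr14:15988816-15989065 on the plus strand (Cxcl10), chr1:199952594-199952843 on the minus strand (Mki67) and chr19:68784195-68784444 on the minus strand (Acta1). Capitals mark an AP-1 element and a TATA box in Mmp13, an AP-1 element in Cxcl10, CHR elements (TTTGAA) and CCAAT boxes in Mki67, and a TATA box in Acta1.
Mmp13: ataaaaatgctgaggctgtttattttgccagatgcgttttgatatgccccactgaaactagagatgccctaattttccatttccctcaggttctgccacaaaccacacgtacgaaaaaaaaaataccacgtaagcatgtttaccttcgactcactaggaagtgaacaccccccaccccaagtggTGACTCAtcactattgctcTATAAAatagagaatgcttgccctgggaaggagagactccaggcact
Cxcl10: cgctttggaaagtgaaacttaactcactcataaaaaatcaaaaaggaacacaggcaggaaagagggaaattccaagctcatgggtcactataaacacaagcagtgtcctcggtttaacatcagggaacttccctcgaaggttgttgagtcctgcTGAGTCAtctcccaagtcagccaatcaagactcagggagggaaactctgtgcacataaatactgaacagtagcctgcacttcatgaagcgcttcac
Mki67: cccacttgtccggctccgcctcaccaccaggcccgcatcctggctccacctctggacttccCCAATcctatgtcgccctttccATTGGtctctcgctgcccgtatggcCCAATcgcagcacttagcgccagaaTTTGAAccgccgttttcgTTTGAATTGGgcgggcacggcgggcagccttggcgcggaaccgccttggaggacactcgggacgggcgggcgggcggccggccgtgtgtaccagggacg
Acta1: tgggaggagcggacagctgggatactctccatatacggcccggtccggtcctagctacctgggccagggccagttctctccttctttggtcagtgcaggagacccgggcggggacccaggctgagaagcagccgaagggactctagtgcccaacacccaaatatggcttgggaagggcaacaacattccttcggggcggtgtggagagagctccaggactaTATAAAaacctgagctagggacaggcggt

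The elements were sought by their letters on both strands. Among the 24 promoters found for 24 of the 33 higher genes, AP-1 (TGANTCA) was in 3 (12.5%), namely those of Mmp13, Cxcl10 and Car5b. It was in 1 of 38 promoters (2.63%) of 37 of the 45 lower genes, and in 6.34% of all 33469 promoters of the table. The CCAAT box (CCAAT) was in 54.2% of the promoters of higher genes, 34.2% of those of lower genes and 34.0% of all. The remaining elements were the TATA box (TATAAA) with 16.7%, 18.4% and 12.9%, the CHR (TTTGAA) with 8.33%, 15.8% and 16.2%, the antioxidant element (TGANNNNGC) with 29.2%, 23.7% and 34.7%, and the CRE (TGACGTCA) with 0%, 2.63% and 1.59%, in the same order. Some elements overlap, as a CCAAT box and a CHR do in the Mki67 promoter. The promoter of Pclaf, another cell cycle gene that was lower, held CCAAT boxes and no CHR. A match is a run of letters and not a measured site.

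The probe sets that had changed by 48 h were sorted by what they did in the last 24 hours, as counts with no test. Of the 615 probe sets that were past the threshold upwards at 48 h against 0 h (3.47% of those described), 422 (68.6%) were at a plateau at 72 h, against 73.3% of all probe sets. A further step of at least 1.5-fold in the same direction was seen in 44 (7.15%), against 4.17% of all probe sets with such a ratio, and 37 (6.02%) went back by at least 1.5-fold, against 3.52%. The remaining probe sets lay between these limits, 45 on the way up and 67 on the way back. Of the 826 probe sets that were lower at 48 h than at 0 h (4.66%), 468 (56.7%) were at a plateau, 79 (9.56%) were lower by at least another 1.5-fold, against 3.52% of all probe sets, and 46 (5.57%) were higher by at least 1.5-fold, against 4.17%. Another 96 moved a smaller way down and 137 a smaller way back. The sizes of these sets depended on the scaling of the arrays, with 831 higher and 607 lower at 48 h when the arrays were scaled to the same median, and 702 and 748 after quantile normalization. Both comparisons use the 48 h array, so that an error of that array moves a probe set one way in the earlier change and the other way in the later one.

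The same classes were therefore also read from the change of 24 h against 0 h, which does not use the 48 h array. Among 154 probe sets higher at 24 h, 15 (9.74%) were at least 1.5-fold higher at 72 h than at 48 h, 90 (58.4%) were at a plateau and 15 (9.74%) were at least 1.5-fold lower. Among 345 probe sets lower at 24 h, 55 (15.9%) were at least 1.5-fold lower at 72 h than at 48 h, 168 (48.7%) were at a plateau and 14 (4.06%) were at least 1.5-fold higher.

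**Figure D2:**
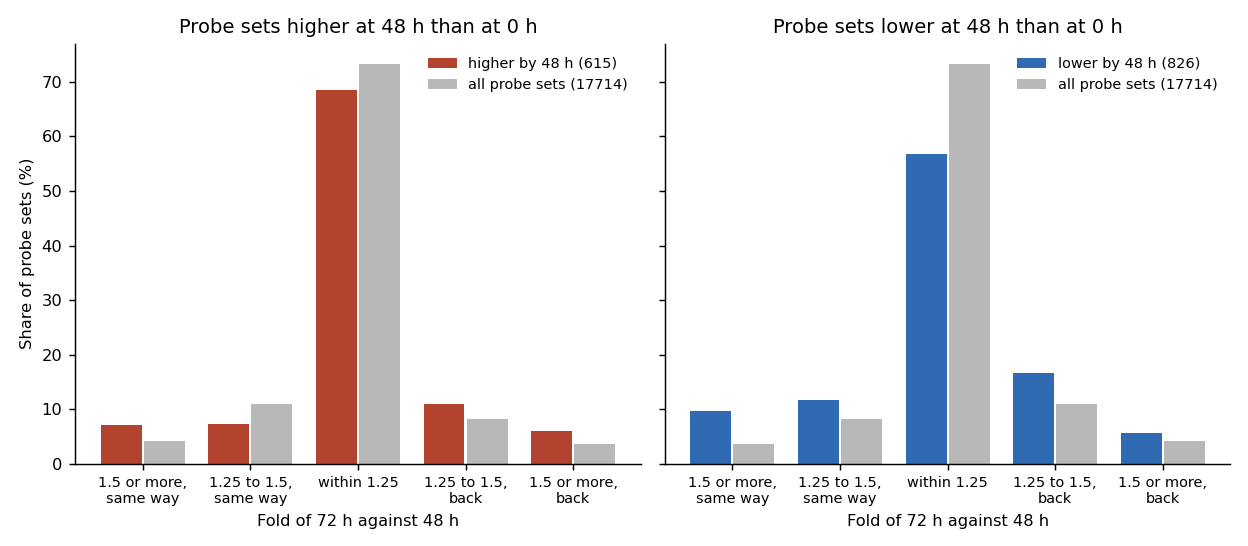
Share of probe sets (%) by the fold of 72 h against 48 h, for the 615 probe sets higher at 48 h than at 0 h (left), the 826 lower (right) and, in grey, all 17714 read in the same direction. The middle pair of bars, the plateau, is the tallest in both panels, with 68.6% and 56.7% against 73.3% of all.

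Seen from the 116 probe sets past the threshold, 28 continued an earlier change, 13 upwards and 15 downwards. In 30 others the signal at 48 h was within the same limits of that at 0 h, and the change past the threshold came in the last step, with 12 higher and 18 lower. In 6 the step undid an earlier change, 4 upwards and 2 downwards. The other 52, 23 higher and 29 lower, had moved before by less than the threshold.

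Several genes that were already higher by 48 h, and past the threshold upwards again at 72 h, encode secreted proteins. Serpina3n, a secreted inhibitor of serine proteases of the acute phase response, had signals of 88.3, 136, 223, 276, 475, 1782 and 4357 on the 7 arrays in order of time, so that each array was above the one before. Its ratio of 72 h to 48 h was 2.44. Ereg (epiregulin), a ligand of the EGF receptor, read 1092 at 72 h and 275 at 48 h, a ratio of 3.97, after 28.9 at 0 h. Its earlier signals of 57.4 to 106 between 2 h and 24 h had no steady order. The chemokine genes Ccl20 and Cxcl3, which draw lymphocytes and neutrophils, gave 2014 and 1799 at 72 h, against 842 and 693 at 48 h. All 3 singly named probe sets of Cxcl3 were past the threshold, with ratios of 2.59, 2.45 and 2.24. Grem1, a secreted antagonist of bone morphogenetic proteins, stood at 5087 at 72 h and 1477 at 48 h, while its 24 h signal was 1446. Its last step was thus 3.44-fold after a step of 1.02-fold in the 24 hours before.

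Other genes of that group encode a transcription factor and an enzyme. Fosl1, which encodes the AP-1 subunit Fra-1, read 854 at 72 h and 399 at 48 h, a ratio of 2.14. Car5b, a mitochondrial carbonic anhydrase, read 1761 at 72 h and 834 at 48 h, and its other probe set gave a ratio of 1.75. The small heat shock protein gene Cryab lay just outside the threshold with 3248 at 72 h and 1654 at 48 h, a ratio of 1.96. The stromelysin gene Mmp3 (1458 at 72 h and 731 at 48 h) and Gigyf2 (402 at 72 h and 201 at 48 h) were nearest to it from outside on the upward side, with a ratio of 1.996 each, and Syt4 was among the nearest from inside with 2.01. On the downward side Plek (0.501) was nearest from outside and Myl1 (0.499) from inside. Mmp3 had been higher at 24 h (1061) than at 48 h, so its course was not steady.

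A different set of genes had a 48 h signal near the one at 0 h and was past the threshold upwards at 72 h. Dcn (decorin), a small proteoglycan of the collagen matrix, kept between 4979 and 6216 on the first 6 arrays and read 11059 at 72 h, 2.22 times its 48 h signal of 4979. Adamts1, a secreted metalloprotease, kept between 981 and 1162 and then read 2082, a ratio of 2.05 to its 48 h signal of 1017. Gda (guanine deaminase) read 1174 at 72 h and 507 at 48 h, after 689 and 705 at 2 h and 6 h, and the ratio at its other probe set was 2.35. Cpm (carboxypeptidase M) read 952 at 72 h and 446 at 48 h. Inhbb, the βB subunit of activins and inhibins, read 521 at 72 h and 155 at 48 h, having stayed between 154 and 209 until then. Dgke, a diacylglycerol kinase, read 434 at 72 h and 207 at 48 h. Tnn (tenascin N), a matrix glycoprotein, read 772 at 72 h and 224 at 48 h, although it had swung between 149 and 436 on the earlier arrays.

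The other genes among the 15 highest ratios past the threshold had moved before by less than the threshold. For Slit3, Cd55, Aldh1a3 and Cyp4b1 the 48 h signal was under 100, where signals are unreliable, and they passed the filter through the 72 h array. Their ratios are therefore given as lower bounds, with the 48 h signal raised to 100. Slit3, a ligand of Robo receptors in axon guidance, read 312 at 72 h and 25 at 48 h, at least 3.12-fold higher. It had read 212 at 0 h and 328 at 6 h, so that its 72 h signal lay within the range of the first arrays. Ccn3, a matrix-associated protein of the CCN family, read 858 at 72 h and 119 at 48 h, against 403 at its highest earlier point at 6 h. Cd55, which protects cells from complement, read 351 at 72 h and 61.1 at 48 h, at least 3.51-fold higher. Aqp8, a water channel, read 552 at 72 h and 107 at 48 h, and no array before 48 h exceeded 60.2. Mmp13 (collagenase 3), whose promoter is printed above, read 643 at 72 h and 146 at 48 h, after 329 at 0 h. Prl8a7 of the rodent prolactin family read 449 at 72 h and 154 at 48 h, with at most 15.7 before 48 h. Aldh1a3, an enzyme of retinoic acid synthesis, read 309 at 72 h and 89.3 at 48 h, at least 3.09-fold higher. Cyp4b1, a cytochrome P450, read 298 at 72 h and 81.6 at 48 h, at least 2.98-fold higher, but its difference was under 200 with the raised signal. Vnn1, a pantetheinase, read 599 at 72 h and 209 at 48 h. Outside the 15 highest, Thy1, a surface protein of neurons and fibroblasts, read 2346 at 72 h and 946 at 48 h, with a ratio of 2.37 at its other probe set. Cxcl10, a chemokine that interferons induce, read 630 at 72 h and 305 at 48 h. Mon2 was also among the 15 highest ratios, with 328 at 72 h and 124.9 at 48 h, but its other probe set gave 1.28.

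**Figure D3:**
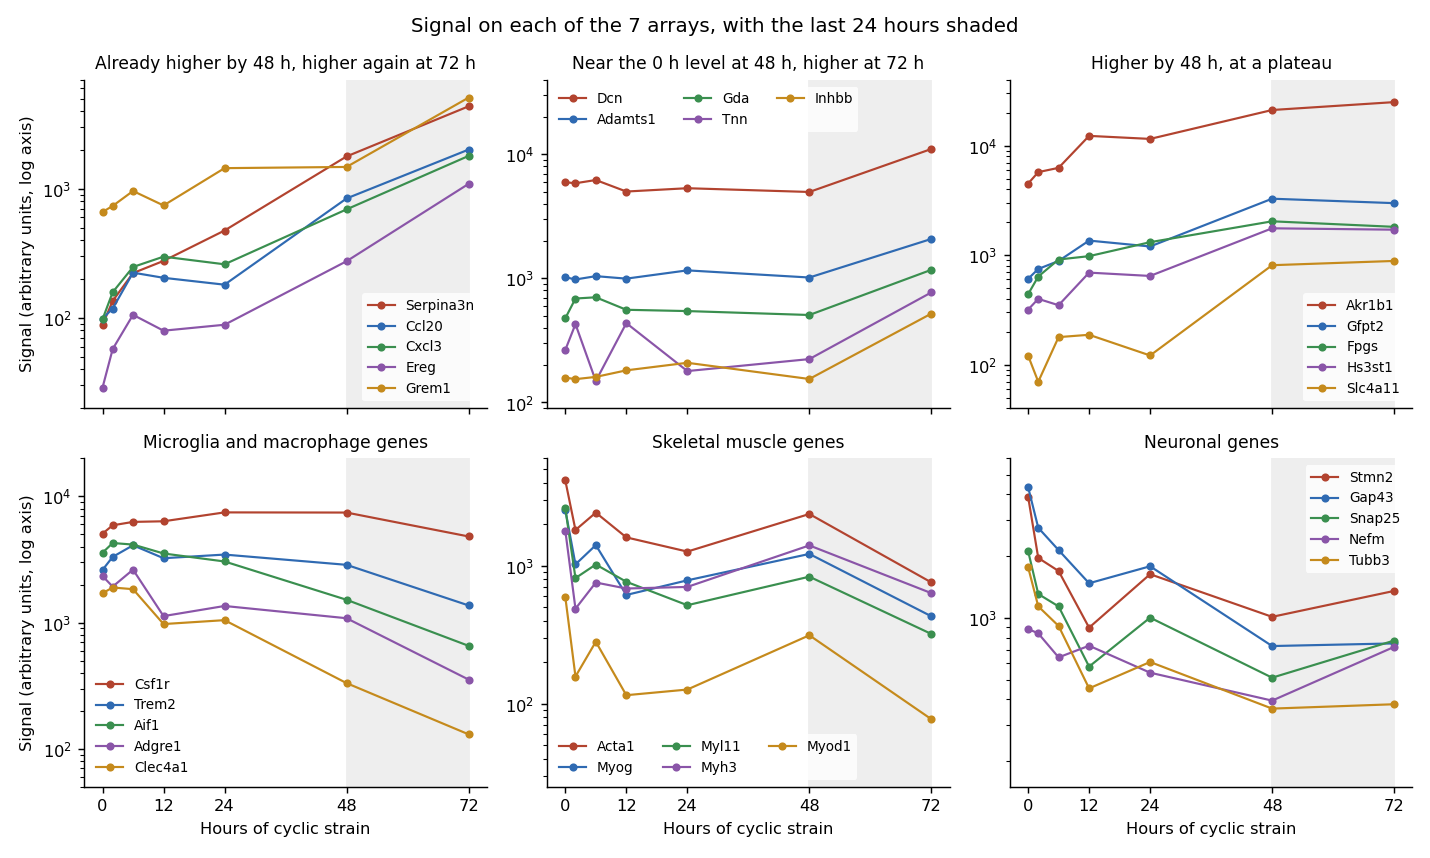
Signal (arbitrary units, log axis) on each of the 7 arrays against hours of cyclic strain, with 48 h to 72 h shaded; each point is 1 array, so there are no error bars. Serpina3n was higher on every later array, Dcn moved on the last array alone, Akr1b1 and Gfpt2 levelled off, the muscle genes were higher at 48 h than at 24 h and lower at 72 h, and Gap43 and Tubb3 stayed low.

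The genes named at a plateau on the high side had the largest ratios of 48 h to 0 h among plateau genes. Akr1b1 (aldose reductase) read 24980 at 72 h and 21157 at 48 h, a ratio of 1.18, with 4498 at 0 h. Gfpt2, which feeds the hexosamine pathway, read 2983 at 72 h and 3276 at 48 h, a ratio of 0.91, and Hs3st1, a heparan sulfate sulfotransferase, 1707 at 72 h and 1757 at 48 h. Slc4a11, a membrane transporter, read 885 at 72 h and 809 at 48 h after 121 at 24 h. Fpgs, which adds glutamate to folates, read 1812 at 72 h and 2036 at 48 h. Paqr5, Cdhr4, Car8, Lrg1 and Spaca6 belonged to the same group with ratios of 72 h to 48 h between 0.987 and 1.21. Their 48 h signals were 5.05 to 78.4 times those at 0 h, the largest of these resting on a 0 h signal of 4.24 for Paqr5.

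The 10 genes named at a plateau on the low side included neuronal and complement genes. Gap43, a growth cone protein, read 751 at 72 h and 729 at 48 h, against 4350 at 0 h. Stmn3, a regulator of microtubules, read 539 at 72 h and 471 at 48 h, and Vsnl1, a neuronal calcium sensor, 250 at 72 h and 212 at 48 h. Caly, Elmod1, Epha3, Nap1l2 and Spetex2l2 had ratios of 72 h to 48 h between 0.958 and 1.249. The complement genes C1qa and C1qc, which microglia and macrophages express, read 984 and 489 at 72 h, against 998 and 548 at 48 h. C1qa had been at 5264 at 0 h.

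Genes that turned back were fewer. Siglec5, a receptor of myeloid cells, read 2015 at 72 h and 3457 at 48 h, a ratio of 0.58, and was still 6.57 times its 0 h signal of 307. Fosl2, which encodes the AP-1 subunit Fra-2, read 420 at 72 h and 700 at 48 h. Its other probe set gave a ratio of 0.79. Fosl1 and Fosl2 thus lay on opposite sides of 1 in the last 24 hours. Arid3a, Hipk3 and Dpep2 had ratios of 0.54, 0.58 and 0.48, and Rprd2 had 0.45, with 0.93 and 1.21 at its other probe sets. Returning from a low level, Car3 (carbonic anhydrase 3) read 1667 at 72 h and 657 at 48 h, against 1646 at 0 h, and its other probe set gave 2.77. Thbd (thrombomodulin), an anticoagulant surface protein, read 570 at 72 h and 264 at 48 h, against 593 at 0 h, with 2.18 at its other probe set. Syt4, a vesicle protein of neurons, read 1183 at 72 h and 590 at 48 h, and the neuropeptide gene Sst (somatostatin) 190 at 72 h and 88.8 at 48 h, below the minimum difference. Tmem35b and Disp2 were likewise below that difference, with ratios of 2.62 and 2.10 on 48 h signals of 59.2 and 68.4. The 48 h signals of Sst, Tmem35b and Disp2 were all under 100, where signals are unreliable. With its 48 h signal raised to 100, Disp2, at 144 at 72 h, would not reach the limit of 1.5-fold.

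The genes that were lower at 72 h than at 48 h included genes of macrophages and of skeletal muscle, which are also described by their lists. Cd5l, a secreted macrophage protein, had the lowest ratio among singly named genes past the threshold, 0.18, with 123 at 72 h and 682 at 48 h. It had already been 0.25 times its 24 h signal at 48 h, and the 24 h signal of 2749 was its highest. Mmp9 (gelatinase B) read 1088 at 72 h and 4827 at 48 h, a ratio of 0.23, after 11300 at 0 h. Its other probe set gave 0.27. Mmp9 and Mmp13, both matrix metalloproteinases, therefore differed in direction over the last 24 hours. Other genes of leukocytes were Fcrl2 (288 at 72 h and 812 at 48 h), Ccr1, a chemokine receptor (1079 at 72 h and 2288 at 48 h), Cd37, a tetraspanin (458 at 72 h and 1113 at 48 h), Lst1 (450 at 72 h and 943 at 48 h), Fmnl1 (462 at 72 h and 1040 at 48 h) and Slfn2 (1515 at 72 h and 3101 at 48 h).

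Of the 21 genes of the microglia and macrophage list past the filter, 4 were lower past the threshold and none was higher, against 45 and 33 of all 10112 genes. The median ratio was 0.773, against 1.0 for all genes, and 19 of the 21 lay below 1, as did 4927 of all 10112 genes. Adgre1 (F4/80) read 354 at 72 h and 1083 at 48 h, Clec4a1, a C-type lectin, 130 at 72 h and 331 at 48 h, and Aif1 (Iba1) 654 at 72 h and 1516 at 48 h. Trem2, a lipid-sensing receptor, read 1368 at 72 h and 2868 at 48 h, and its other probe set gave 0.51. Unlike the first 3, Trem2 had been 1.096 times its 0 h signal at 48 h. Csf1r, the receptor that microglia need for survival, gave a ratio of 0.65 and Ptprc (CD45), which marks all leukocytes, 0.64. Lyz2 (lysozyme) at 1.18 and Fcgr2b at 1.60 were above 1. The summed signal of the list was 112643 at 72 h, 139200 at 48 h and 159536 at 24 h. Cd163 and Cx3cr1 were under the filter, with signals of at most 53.1. In RNA from whole cultures, fewer cells of a type and less RNA per cell cannot be told apart. Clec4a1 belongs to a family of like genes, and its probes were not checked for shared sequence.

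Skeletal muscle is not part of the spinal cord, yet 14 of the 17 muscle genes named on the array were past the filter. Beside 4366 at 72 h, the summed signal was 9865 at 48 h, 5995 at 24 h and 18366 at 0 h. All 14 of these genes had a ratio of 72 h to 48 h below 1, as did 4927 of all 10112 genes. Their median was 0.431, and 6 were lower past the threshold, beside 45 of all 10112 genes. Under the filter, Myh8 read 97.7 at 72 h and 39.1 at 48 h, Mybph 23.4 at 72 h and 158.7 at 48 h, and Ckm 4.6 at 72 h and 60.8 at 48 h. In the 24 hours before, 13 of the same 14 had gone the other way, with a median ratio of 48 h to 24 h of 1.58. Acta1, the skeletal muscle α-actin, read 757 at 72 h, 2372 at 48 h and 1266 at 24 h. Myod1 and Myog, transcription factors of the muscle lineage, read 77.2 and 430 at 72 h, against 313 and 1218 at 48 h. The 72 h signal of Myod1 was under 100. The contractile genes Myl11 (0.38), Myh3 (0.45) and Myl1 (0.50) were also past the threshold, and Myl4, which is outside the list, had 0.38. Tnnc2 and Tnnt1 had ratios of 0.34 and 0.39 with differences under 200. Their 72 h signals of 86.0 and 85.7 were under 100, where signals are unreliable. The 48 h array thus carried more muscle signal than the arrays on either side of it, and whether the pools differed in adhering muscle tissue was not tested.

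Of 28 genes of the mitosis list, 26 had a ratio below 1, as did 4927 of all 10112 genes. The median of the list was 0.682, after a median of 0.589 in the 24 hours before. Mki67, a marker of cycling cells, was the 1 gene past the threshold, with 215 at 72 h and 447 at 48 h, beside 45 lower genes of all 10112. It was no longer past it with 32 added to both signals. Ccnb2 (cyclin B2) had the lowest ratio of the list, 0.42, but with 129 at 72 h and 308 at 48 h its difference was under 200. Top2a (topoisomerase IIα) read 140 at 72 h and 240 at 48 h, and Aurkb (Aurora B) 123 at 72 h and 238 at 48 h. Kif23 and Cdk1 were near 1, with 1.06 and 0.97. By the classes above 13 genes of the list were still moving down and 5 were at a plateau, of 24 changed by 48 h. Among all probe sets lower by 48 h, 9.56% were still moving and 56.7% were at a plateau. Genes of DNA replication were closer to 1 with a median of 0.881 over 25, of which Pcna had 1.0, Mcm2 1.0 and Mcm7 0.64, and none was past the threshold. Cdca7, a gene of that list, read 38.9 at 72 h and 176 at 48 h. Its 72 h signal was under 100, where signals are unreliable. The cell cycle gene Pclaf, which is on neither list, was lower past the threshold, with 173 at 72 h and 413 at 48 h. The mitosis list thus lay lower than the replication list in the last step, as a description of these arrays.

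Neuronal genes had the opposite sign to the step before. Of the 23 genes of the list past the filter, 20 had a ratio of 72 h to 48 h above 1, with a median of 1.22, as did 53.9% of all probe sets, while all 23 had a ratio of 48 h to 24 h below 1, with a median of 0.663. None was past the threshold. The neurofilament genes Nefm and Nefl read 722 and 261 at 72 h, against 395 and 147 at 48 h. Snap25, of the synaptic release machinery, read 775 at 72 h and 511 at 48 h, and Stmn2, a regulator of axonal microtubules, 1354 at 72 h and 1012 at 48 h. Dcx and Tubb3, genes of young neurons, were at 1.04 and 1.05, and Rbfox3 (NeuN) and Elavl3 (HuC) were below 1 with 0.87 and 0.74. The summed signal of the list was 15679 at 72 h, 12374 at 48 h, 19037 at 24 h and 40200 at 0 h. Both medians share the 48 h array. Chat, Isl1, Lhx1, Nefh and Syt1 were under the filter, with signals of at most 65.4, so that the motor neuron markers Chat and Isl1 gave no ratio.

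**Figure D4:**
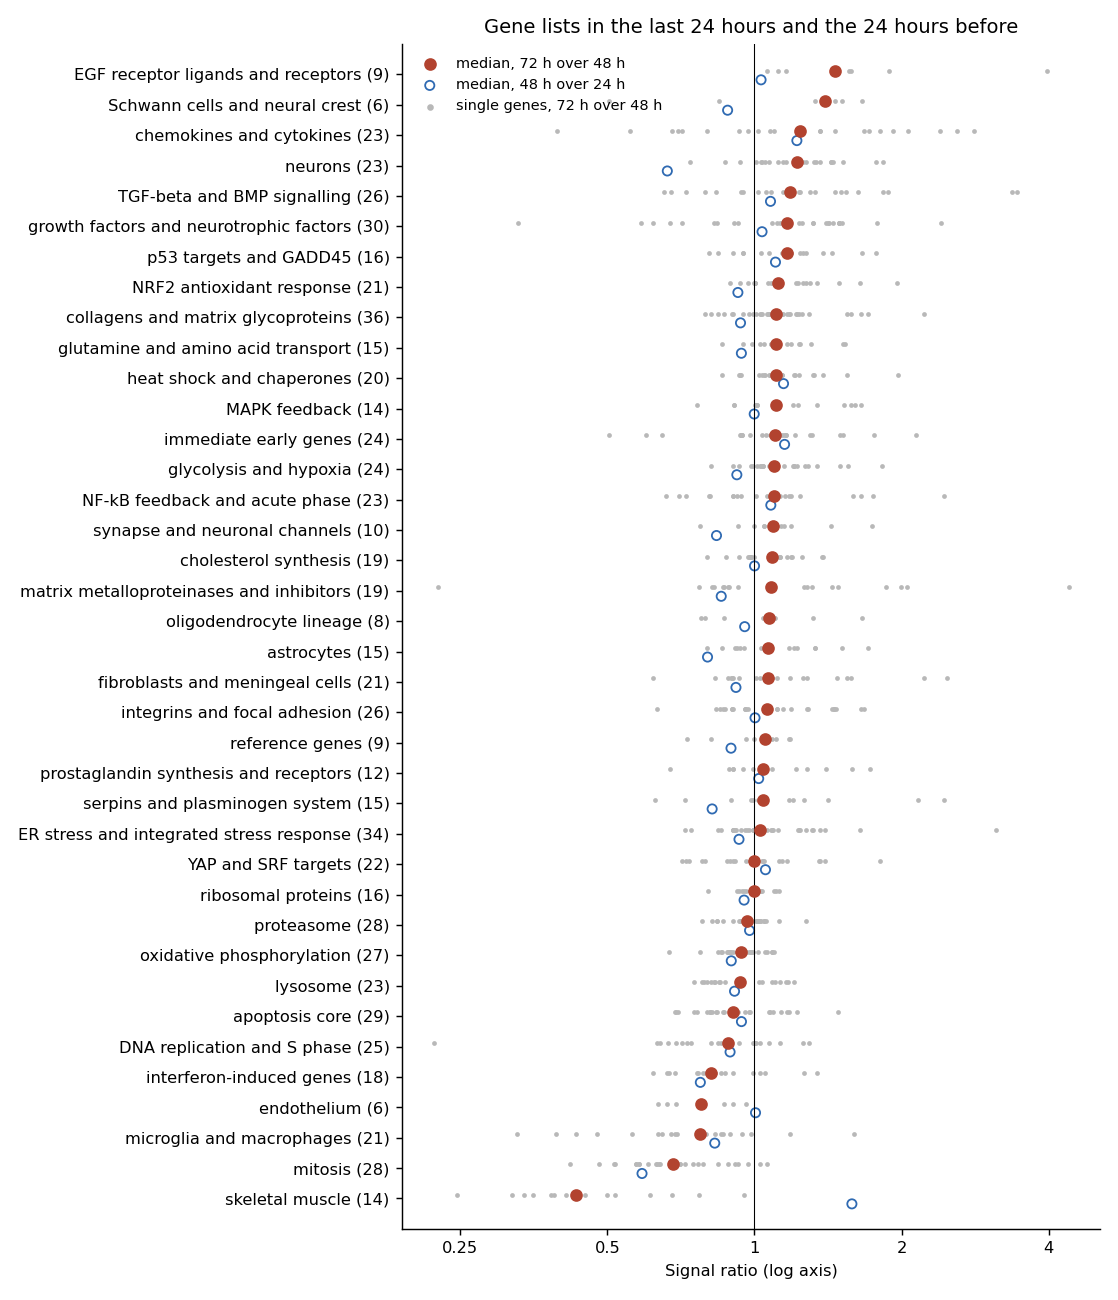
Median ratio of 72 h to 48 h (filled) and of 48 h to 24 h (open) of 38 gene lists, with single genes of the 72 h to 48 h ratio in grey and the number of genes past the filter in brackets (log axis). Skeletal muscle (0.431) and mitosis (0.682) were lowest and EGF receptor ligands and receptors (1.46) highest in the last step.

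Among signalling genes, all 9 genes of the EGF receptor list had a ratio above 1, as did 5185 of all 10112 genes. The median of the list was 1.46. Of the 9, only Ereg was past the threshold, beside 33 higher genes of all 10112. Beside Ereg, Areg (amphiregulin) read 1035 at 72 h and 550 at 48 h, Hbegf 166 at 72 h and 106 at 48 h, and Nrg1, a neuregulin, 221 at 72 h and 140 at 48 h. The receptor genes Egfr and Erbb2 were near 1, with 1.06 and 1.11, and Erbb3 had 1.46.

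Chemokine and cytokine genes went both ways, with 3 of 23 higher past the threshold, 1 lower, and a median of 1.24, beside 33 higher and 45 lower of all 10112 genes. Cxcl3, Ccl20 and Cxcl10 were the higher ones, and Cxcl10 lost its call when the arrays were scaled to the same median or with 32 added to both signals. Il6, a cytokine of the acute phase, read 253 at 72 h and 90.3 at 48 h, a ratio of 2.81 with a difference under 200. Its 48 h signal was under 100, where signals are unreliable. Tnf, a cytokine made chiefly by macrophages, read 207 at 72 h and 524 at 48 h, and its other probe set gave 0.59. Ccl4, which macrophages also make, had 0.56. Ccl2, which attracts monocytes, was at a ratio of 0.97 with 17146 at 72 h and 17705 at 48 h.

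In the TGF-beta and BMP list, Grem1 and Inhbb were the higher 2 of 26 genes, beside 33 of all 10112, and the median was 1.18. Bmp2 read 612 at 72 h and 333 at 48 h, and Id1, a target of BMP signalling, 3006 at 72 h and 1604 at 48 h. Fst (follistatin), which binds activins, was at 0.65, with 1035 at 72 h and 1586 at 48 h. Of the binding proteins of growth factors, Igfbp3 read 536 at 72 h and 1634 at 48 h, a ratio of 0.33, and its other probe set gave 0.26. In the metalloproteinase list, 2 of 19 genes were higher and 1 lower, beside 33 and 45 of all 10112, with a median of 1.08. Of the higher ones, Adamts1 lost its call when the arrays were scaled to the same median. Mmp2 (gelatinase A) read 17659 at 72 h and 12271 at 48 h and Timp2, an inhibitor, 7873 at 72 h and 10208 at 48 h.

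Fibroblast and meningeal genes were mixed, with Thy1 and Dcn higher past the threshold among 21, beside 33 higher genes of all 10112, and a median of 1.06. Col1a1 (type I collagen) had a ratio of 0.90, Col3a1 (type III) 1.18, Lum (lumican) 1.54 and Igf2 0.62.

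The study drew up a table of genes under the term response to stimulus from these same arrays, chosen for a late increase, so its direction is no independent evidence. Of its 15 genes past the filter 9 were higher past the threshold in the last step, beside 33 of all 10112 genes, and all 15 had a ratio above 1, with a median of 2.39. Ptgs2 (cyclooxygenase-2) read 3116 at 72 h and 1808 at 48 h, Hspa4l, a chaperone, 2384 at 72 h and 1544 at 48 h, and Sncg (γ-synuclein) 1688 at 72 h and 976 at 48 h. Slc12a2, an ion cotransporter, read 3353 at 72 h and 1730 at 48 h, and Nupr1, a stress-induced nuclear protein, had the lowest ratio of the table with 1.36. The study's apoptosis table, likewise chosen on these arrays, had 1 of 38 genes past the threshold in the last step (Fosl1, higher). Of all 10112 genes, 33 were higher and 45 lower. The median of the table was 1.09. Of its 23 genes changed by 48 h at their probe set of highest mean signal, 12 were at a plateau, 4 were still moving and 1 had turned back. Among all probe sets higher by 48 h, 68.6% were at a plateau, 7.15% were still moving and 6.02% had turned back. The study's table rests on other probe sets for some genes. At other probe sets Itgav, Pdgfrb, Cln3, Pik3ca, Vegfa and Apbb2 had also changed by 48 h and were at a plateau. These genes are not among the 23, so the counts are too low for the study's own probe sets. Dapk1, a death-associated kinase, read 2705 at 72 h and 2481 at 48 h, Ripk2 1160 at 72 h and 1243 at 48 h, and Birc3, an inhibitor of apoptosis, 529 at 72 h and 449 at 48 h. Hmox1 (heme oxygenase 1), which was still moving, read 14765 at 72 h and 8973 at 48 h, and Dusp1, a phosphatase of MAP kinases, 3029 at 72 h and 1884 at 48 h. Traf1, an adaptor of TNF receptors, had turned back with 211 at 72 h and 325 at 48 h.

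For some genes the probe sets differed. Meg3, a long non-coding RNA, read 617 at 72 h and 2043 at 48 h at the probe set of higher signal, a ratio of 0.30, and 925 at 72 h and 1077 at 48 h at the other, a ratio of 0.86. Ptpn18, a phosphatase, gave 0.39 and 0.97 at its probe sets. Of the other genes with low ratios, Plxnd1, a receptor of semaphorins, read 695 at 72 h and 1784 at 48 h. Capn6, a calpain without protease activity, read 32.1 at 72 h and 190 at 48 h, below the minimum difference. Its 72 h signal was under 100, where signals are unreliable.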

How the data were processed

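Cells cultured from fetal rat spinal cords were strained for up to 72 hours, and RNA of 5 animals was pooled for 1 GeneChip Rat Genome array per time. The authors scanned the arrays in GCOS and deposited MAS5 signals with global scaling, which are linear intensity values in arbitrary units. Background subtraction and scaling leave low signals unreliable, so probe sets with a mean signal of the 72 h and 48 h arrays under 100 were left out, as were 57 controls. Only the number of arrays sets the precision.

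Ratios of 72 h to 48 h were computed in Python 3.11.15 with pandas 2.3.3 from the deposited intensity values without further normalization, and called at a ratio of 2 with a difference of 200. No test was possible with 1 array a time, and no p-value is given. Among probe sets past the same threshold at 48 h against 0 h, a fold of at least 1.5 was called still moving or turning back and a change of at most 25% up or 20% down a plateau. The code for calls and classes was run on the 48 h array with known factors applied to bright probe sets. No noise was added, so this checks the code and not the reliability of the calls. A single gene symbol was given to 20826 probe sets by the platform annotation of 2016, several symbols to 436 and none to 9780.

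Named genes were the 15 highest and 15 lowest ratios past the threshold, up to 10 per direction still moving, at a plateau or newly moving, up to 6 turning back, up to 4 per list past the threshold, and genes of the study's tables. List members named for their role, and genes nearest the threshold, were chosen after their values were seen. The members, classes and 40 gene lists were chosen with earlier results of these data known. Alternatives were other scalings, filters, thresholds, class limits, baselines, a pseudocount of 32, signals under 100 raised to 100 (chosen after seeing the data) and other summaries of a gene. Ratios to 0 h sort genes into classes and are given as sizes.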

Additional observations from a re-analysis of the deposited data

How the results depend on the processing

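More probe sets were lower than higher under each scaling, but the counts depended on the limits chosen. With arrays scaled to the same median 42 probe sets were higher and 75 lower, and with quantile normalization 48 and 71, and the median ratio over all probe sets moved by -0.05 and -0.02 on the log2 scale. A ratio of 1.5 gave 226 higher and 253 lower probe sets, a ratio of 3 gave 14 and 10, no minimum difference gave 122 and 111, and a difference of 400 gave 28 and 39. A filter on mean signal of 200 kept both counts within 1.5 times. A filter of 50, or none, could not change either count, so these are no check. The minimum difference of 200 already puts the mean signal of the 72 h and 48 h arrays at or above the main filter.

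Among probe sets changed by 48 h, a limit of 1.3 gave 75 still moving up and 150 still moving down, with 89 and 139 turning back. A limit of 2 gave 13 and 28, with 3 and 11 turning back. Scaling to the same median gave 69 turning back from a higher level and 29 from a lower one, out of 831 higher and 607 lower; the cause was not tested. A filter of 200 gave 37 still moving down and 27 turning back from a lower level, out of 547 lower probe sets. These shares were 6.76% and 4.94%, against 9.56% and 5.57% of 826 with the main filter. An earlier change read at 24 h gave 15 still moving up, 90 and 168 at a plateau, and 15 and 14 turning back, from fewer probe sets.

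Of 283 alternative medians of gene lists, 282 stayed within the order-statistic interval of the main median over the list's genes. That interval takes genes and not arrays as its units, so it holds no spread between cultures. For a list of 6 genes, such as endothelium, it spans all their ratios, from 0.636 to 0.961. Staying inside it is therefore a weak check. The proteasome median moved to 0.932 with arrays scaled to the same median, against 0.967. The medians of the microglia and macrophage, skeletal muscle, mitosis, neuron and EGF receptor lists kept their side of 1 in every alternative run. Lists of synapse, oligodendrocyte, prostaglandin, endoplasmic reticulum stress, YAP and SRF and ribosomal genes, all with medians near 1, crossed it in at least 1 alternative. Cell type lists without genes that another cell type list holds, an alternative chosen after seeing the data, were among the 282. Of 54 named genes past the threshold, 50 stayed past it with the same median, 52 with quantile normalization and 49 with 32 added to both signals. With signals under 100 raised to 100, chosen after seeing the data, Cyp4b1 was lost. The genes lost under at least 1 of the others were Mon2, Dpep2, Syt4, Dgke, Adamts1, Mki67 and Cxcl10. No paired analysis was possible because each time has 1 array and the labels give no replicate numbers.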

Other observations

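Endothelial genes, few in number, all had a ratio of 72 h to 48 h below 1, as did 4927 of all 10112 genes. Their median was 0.779 over 6 genes. Eng (endoglin), a co-receptor of TGF-beta, read 2625 at 72 h and 3805 at 48 h, after 774 at 0 h. Esam, an adhesion molecule of endothelial junctions, read 914 at 72 h and 1436 at 48 h. Pecam1, Cldn5, Kdr, Tek and Vwf, which define the endothelium, were under the filter, so the list does not establish that endothelial cells were present. Interferon-induced genes had a median of 0.817 over 18 genes, 14 of them below 1, beside 4927 of all 10112 genes. Irf7, a transcription factor of the interferon response, read 366 at 72 h and 554 at 48 h, while Isg15, a ubiquitin-like protein, read 227 at 72 h and 169 at 48 h. No gene of either list was past the threshold.

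Astrocyte genes had a median of 1.07 over 15 genes. Tnc (tenascin C), a matrix protein, read 6406 at 72 h and 3760 at 48 h, and Gfap, the astrocyte intermediate filament, 5960 at 72 h and 7466 at 48 h. The Schwann cell and neural crest list was small, with a median of 1.40 over 6 genes. Sox10, a factor of the neural crest and of oligodendrocytes, read 605 at 72 h and 365 at 48 h, and Egr2, an immediate early gene that also acts in Schwann cells, 831 at 72 h and 1651 at 48 h. Housekeeping groups stood near 1, with medians of 0.996 for 16 ribosomal protein genes, 0.967 for 28 proteasome genes and 0.937 for 27 genes of oxidative phosphorylation.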
